A study of Mus musculus with 24 samples.

Results

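The CREB family and the CRTC coactivators carry the cyclic AMP and calcium signals of active neurons to their genes. They were followed here through 30 probe sets of 9 genes, out of 45037 probe sets and 18193 genes on the arrays. The members were all probe sets whose only gene symbol was Creb1, Creb5, Crem, Atf1, Atf2, Atf7, Crtc1, Crtc2, Crtc3 or Sik1. Creb1 had 6 probe sets, Atf2 had 5, Creb5 and Crem had 4 each, Crtc1 had 3, and Atf7, Crtc2, Crtc3 and Sik1 had 2 each. Atf1 had none, because its 1 probe set carries a second symbol as well. The family was chosen by name, after the whole-brain sleep deprivation difference of Creb5 was known, so for the members that contrast is given below as a description only. Its values selected the family and support nothing here.

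CREB factors bind the cyclic AMP response element (CRE) of their target genes as pairs, through a basic leucine zipper. CRTC proteins enter the nucleus when they lose phosphates, and there they raise transcription by CREB. The salt-inducible kinase Sik1, itself a product of CREB signalling, puts those phosphates back, and short Crem products repress CRE genes, so both are known as feedback arms of the pathway.

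RNA came from brains of male mice, 12 weeks old, all taken at 6 h after light onset. The pull-down holds RNA of Homer1a-expressing cells, recovered on anti-FLAG beads from formaldehyde-fixed brain and then amplified, with 6 arrays of mice kept awake by gentle handling for 6 h and 6 of undisturbed controls. Whole brain, from unfixed tissue, had 4 arrays after sleep deprivation and 4 of controls, and the supernatant of pull-downs had 4. The supernatants form 1 group of mixed sleep state: both labels give sleep deprivation for 2 of them and control for 1, and for number 13 they contradict each other. Sleep state and extract therefore cannot be fully told apart in comparisons with supernatant. The strain, and the promoter that drives the FLAG-tagged protein, are not given in the sources used here. Values are log2 intensities, differences carry an SE from limma, and levels of different probe sets cannot be set against each other.

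The arrays of the pull-down stood apart as a whole. Their medians ran between 4.37 and 5.70, against 6.04 to 6.24 in whole brain and 6.09 to 6.21 in supernatant. Markers of astrocytes (6 of 6), oligodendrocytes (5 of 5), microglia (4 of 4) and endothelial cells (4 of 4) had lower levels in pull-down, set against whole brain, as had 76.3% of all probe sets (limma, adjusted p under 0.05). Of 8 general neuronal markers 1 was higher (Rbfox3, by 1.45 ± 0.14) and 3 were lower, with a median of -0.24 as deposited. Of 4 markers of excitatory neurons 2 were higher and 1 lower, and of 5 of GABAergic interneurons 1 was higher and 3 lower. Of all probe sets 8.06% were higher as deposited, 32.3% after quantile normalization and 52% with each array centred on its median. The markers were counted as deposited only. The median over all genes was -0.68. Fewer cells of a type and less RNA per cell cannot be told apart in such extracts.

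The promoters of Creb5 and of 3 genes known as CREB targets are shown. Creb5 was picked because it alone held a palindromic CRE among the 7 family genes in the promoter table. These targets were among those read higher after sleep deprivation. Sequences are from RefSeq (GRCm38.p6) and run from 250 bases before to 50 bases after the start. Capitals mark TGACGTCA or the half-sites TGACG and CGTCA, searched on both strands, where each palindrome also holds both half-sites. The coordinates are chr6:53287053-53287352 on the plus strand for Creb5, chr17:26508423-26508722 on the minus strand for Dusp1, chr12:85473640-85473939 on the plus strand for Fos and chr15:101266596-101266895 on the plus strand for Nr4a1.
Creb5: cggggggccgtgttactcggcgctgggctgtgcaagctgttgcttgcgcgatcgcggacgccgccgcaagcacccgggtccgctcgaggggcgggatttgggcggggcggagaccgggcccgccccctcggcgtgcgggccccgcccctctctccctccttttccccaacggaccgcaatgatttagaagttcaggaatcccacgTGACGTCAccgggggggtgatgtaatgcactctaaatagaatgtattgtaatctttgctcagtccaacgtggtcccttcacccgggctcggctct
Dusp1: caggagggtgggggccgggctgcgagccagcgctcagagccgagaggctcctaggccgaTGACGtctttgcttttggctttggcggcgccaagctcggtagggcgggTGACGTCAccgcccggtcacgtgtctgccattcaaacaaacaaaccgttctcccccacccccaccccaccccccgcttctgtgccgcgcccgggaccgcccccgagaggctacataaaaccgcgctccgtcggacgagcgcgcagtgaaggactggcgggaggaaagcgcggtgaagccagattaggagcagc
Fos: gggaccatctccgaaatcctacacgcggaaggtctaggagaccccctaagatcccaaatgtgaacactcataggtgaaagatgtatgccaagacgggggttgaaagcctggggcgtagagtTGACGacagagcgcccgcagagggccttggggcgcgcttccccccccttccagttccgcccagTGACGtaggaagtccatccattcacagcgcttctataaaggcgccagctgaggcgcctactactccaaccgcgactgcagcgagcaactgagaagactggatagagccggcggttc
Nr4a1: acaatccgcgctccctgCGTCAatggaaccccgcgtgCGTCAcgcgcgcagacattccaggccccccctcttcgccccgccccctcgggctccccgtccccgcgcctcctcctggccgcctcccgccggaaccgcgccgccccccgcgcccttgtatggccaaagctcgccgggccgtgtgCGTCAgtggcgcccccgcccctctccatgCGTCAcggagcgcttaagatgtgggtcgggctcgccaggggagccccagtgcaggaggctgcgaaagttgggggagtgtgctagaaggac

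The CRE of Creb5 began 45 bases before the start in 1 of its 2 tabulated promoters. Of the 7 family genes in the promoter table (Creb1, Creb5, Atf1, Atf2, Atf7, Crtc1 and Crtc3), Creb5 alone held the palindrome, and Creb5 and Atf1 held a half-site. No promoter of Crtc2, nor of the feedback genes Crem and Sik1, was searched, so their sites are not known here. Among 21 CREB target genes in the table, 5 held the palindrome and 18 a half-site. A gene was counted if any of its promoters held the site. Counted in this way, 2.03% of all 27025 genes in the table held the palindrome and 23% a half-site. Of the 32851 promoters taken singly, 1.79% held the palindrome and 20.8% a half-site. The target list was drawn up from genes known for such sites.

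Creb5, a CRE-binding factor related to Atf2, was read lower after sleep deprivation in whole brain. At 1457222_at the sleep-deprived brains gave 5.71, 5.74, 5.93 and 5.97, against 6.44, 6.51, 6.74 and 6.88 in controls. All 4 sleep-deprived arrays lay under all 4 controls, as in 4.25% of all probe sets, and the difference was -0.81 ± 0.13. The lead probe set of Creb5, the one with the highest mean over all arrays (1440527_at), gave 6.55, 6.62, 6.63 and 6.99 after sleep deprivation, against 6.72, 7.19, 7.43 and 7.60 in controls. These groups overlapped through 1 sleep-deprived array, number 20, which lay above the lowest control. The differences were -0.54 ± 0.17 at 1440527_at, -0.39 ± 0.14 at 1440089_at and -0.37 ± 0.15 at 1442576_at, the last 2 from probe sets under the array median on all 8 arrays. At 1457222_at all 4 sleep-deprived arrays also lay under their array median, as did 0 of the 4 controls. In the limma fit over all probe sets 1457222_at was the 1 member past an adjusted p of 0.05, beside 0.0466% of all probe sets in either direction and 0.0111% as lower. That call is what selected the family, so nothing is read from it, and without any 1 of the 8 arrays the count of members was 0.

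Markers of oligodendrocytes and microglia were lower on the same whole-brain arrays, and those of astrocytes were not. The mean level of the 5 oligodendrocyte markers lay between 9.59 and 9.73 after sleep deprivation, against 9.79 to 10.01 in controls, with 4 of 5 lower and Opalin, a myelin protein, falling by 0.93 (limma, adjusted p = 0.025). The microglial markers averaged 7.47 after sleep deprivation and 7.66 in controls, with 4 of 4 lower. The astrocyte markers averaged 9.48 after sleep deprivation and 9.42 in controls, with 5 of 6 higher. Markers of oligodendrocyte precursors averaged 7.19 after sleep deprivation and 7.30 in controls, those of endothelial cells 7.31 after sleep deprivation and 7.36 in controls, and those of neurons 11.49 after sleep deprivation and 11.43 in controls. Those of excitatory neurons averaged 8.51 after sleep deprivation and 8.61 in controls, with 2 of 4 lower. Those of GABAergic interneurons averaged 10.64 after sleep deprivation and 10.54 in controls, with 4 of 5 higher. Of all these markers Opalin alone passed the adjusted p. Their part in the Creb5 values was not tested.

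In pull-down the lead probe set of Creb5 gave 6.27, 6.36, 6.65, 7.24, 7.44 and 7.56 after sleep deprivation, against 7.00, 7.06, 7.46, 7.57, 7.94 and 8.35 in controls. All 6 sleep-deprived arrays were below the control mean, but 3 of them lay within the control range. The difference was -0.64 ± 0.30, with an adjusted p of 1 in limma (unadjusted p = 0.0475). The other Creb5 probe sets differed by -0.34 ± 0.32 (1440089_at), -0.14 ± 0.39 (1457222_at) and 0.10 ± 0.24 (1442576_at), and they lay under the array median on most pull-down arrays. The oligodendrocyte markers averaged 7.64 after sleep deprivation and 7.50 in controls of the pull-down.

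**Figure D1:**
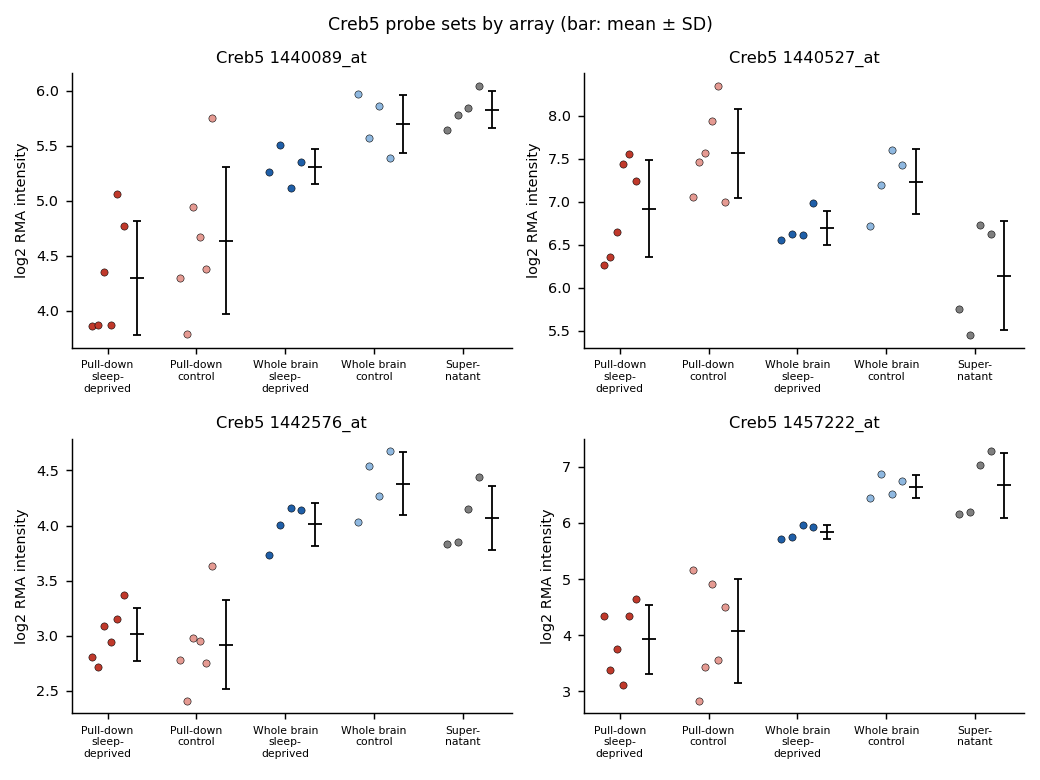
Level of the Creb5 probe sets on each array (log2 RMA intensity, vertical axis) by group, with points for arrays and bars for the mean and SD. In whole brain all 4 sleep-deprived arrays lie below the controls at 1457222_at, and in pull-down the groups overlap at every probe set.

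Crem, whose short products repress CRE genes, read higher after sleep deprivation at 1418322_at in both extracts. In pull-down the values were 6.20, 6.55, 6.61, 6.61, 6.84 and 6.87 after sleep deprivation, against 5.66, 5.90, 5.95, 5.99, 6.09 and 6.29 in controls. The ranges met only where sleep-deprived array 10, at 6.20, lay under control 8, at 6.29. The difference was 0.63 ± 0.22, or 1.55-fold, with an unadjusted p of 0.00929 and an adjusted p of 1 in limma over all probe sets. In whole brain the sleep-deprived arrays gave 6.12, 6.22, 6.29 and 6.32, against 5.55, 5.73, 5.96 and 6.01 in controls. These groups did not overlap, as was the case for 1.75% of all probe sets in that direction, and the difference was 0.43 ± 0.12.

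The other Crem probe sets did not share one direction. The lead probe set 1449037_at differed by 0.46 ± 0.23 in pull-down, with all 6 sleep-deprived arrays above the control mean, and by 0.04 ± 0.13 in whole brain. At 1430598_at the differences were -0.16 ± 0.29 in pull-down and -0.04 ± 0.12 in whole brain. At 1430847_a_at they were -0.45 ± 0.44 and -0.06 ± 0.17. The sources used here do not give which Crem transcripts each probe set reads.

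Sik1, the kinase that phosphorylates CRTC proteins, showed no detectable difference. Its lead probe set 1419766_at gave 5.86, 6.20, 6.36, 6.37, 6.37 and 6.45 in sleep-deprived pull-downs, against 5.55, 5.60, 6.12, 6.18, 6.43 and 7.10 in controls. The sleep-deprived values lay within the control range, and the difference was 0.10 with a 95% interval of -0.46 to 0.67 (adjusted p = 1 in limma). In whole brain the values were 6.72, 6.80, 6.85 and 6.91 after sleep deprivation, against 6.70, 6.87, 6.91 and 7.06 in controls, a difference of -0.06 ± 0.11. The second Sik1 probe set, 1459601_at, lay under the array median on all arrays and differed by 0.08 ± 0.25 in pull-down.

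**Figure D2:**
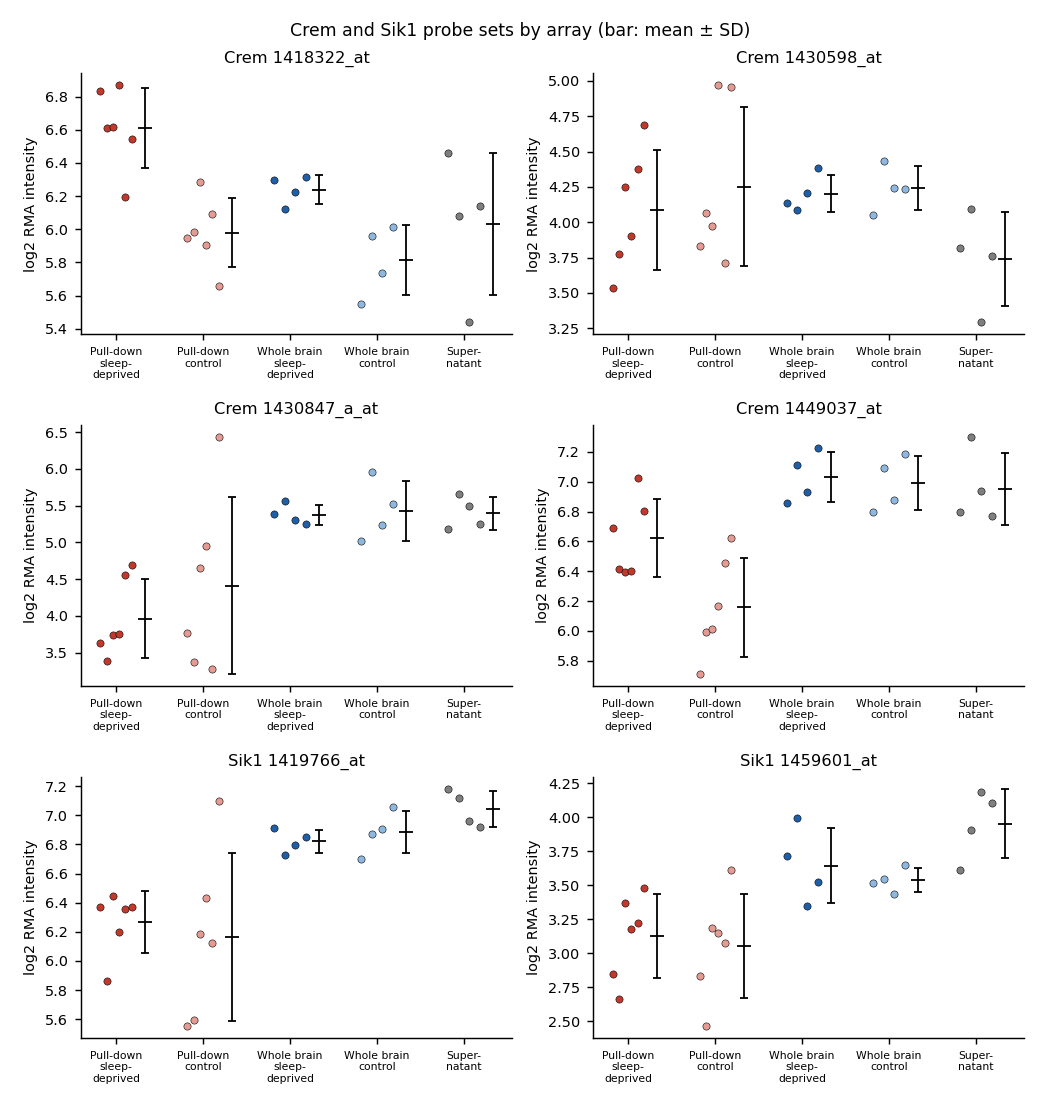
Level of the Crem and Sik1 probe sets on each array (log2 RMA intensity, vertical axis) by group, with points for arrays and bars for the mean and SD. At Crem 1418322_at the sleep-deprived arrays lie above the controls in whole brain and overlap them through 1 array in pull-down, while the Sik1 groups overlap.

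The constitutive activator Creb1 gave a difference of 0.23 ± 0.28 at its lead probe set 1452901_at in pull-down after sleep deprivation, from means of 9.11 ± 0.49 in sleep-deprived and 8.88 ± 0.45 in control arrays (SD, n = 6 each). Its other probe sets ran between -0.15 and 0.36. The lead probe sets of Atf2, an activator that also answers stress kinases, and of its close relative Atf7 differed by 0.13 ± 0.34 and -0.01 ± 0.36. The coactivator Crtc1, the main CRTC of forebrain neurons, differed by 0.48 ± 0.33 at 1458443_at but by -0.46 ± 0.34 at 1446533_at and -0.13 ± 0.32 at 1434476_at. Crtc2 and Crtc3, best known from liver and from fat and immune cells, differed by 0.02 ± 0.21 and -0.11 ± 0.32 at their lead probe sets. The values of Atf7, Crtc2 and Crtc3 at these lead probe sets changed sign under at least 1 of the 4 settings tried, as did 8 of the 30 member probe sets in all.

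In pull-down 0 of the 30 member probe sets passed an adjusted p of 0.05 in limma, as did 0% of all probe sets. At an unadjusted p under 0.05 there were 2, Crem 1418322_at and Creb5 1440527_at, beside 0.955% of all probe sets. The members' median difference was 0.02, against -0.05 over all probe sets. In whole brain the median was -0.07 for members and for all probe sets alike, and Creb1, Atf2, Atf7, Crtc1, Crtc2, Crtc3 and Sik1 ran between -0.31 and 0.14 there. The lowest of these was Creb1 1421583_at, which lay under the array median on every array.

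The effect of sleep deprivation in pull-down minus that in whole brain was tested as an interaction. That contrast contains the whole-brain difference that selected the family, so it is given as a count alone. Of the 30 member probe sets 0 passed the adjusted p, as did 0% of all probe sets. At an unadjusted p under 0.05 in limma there were 0 members, beside 0.338% of all probe sets.

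**Figure D3:**
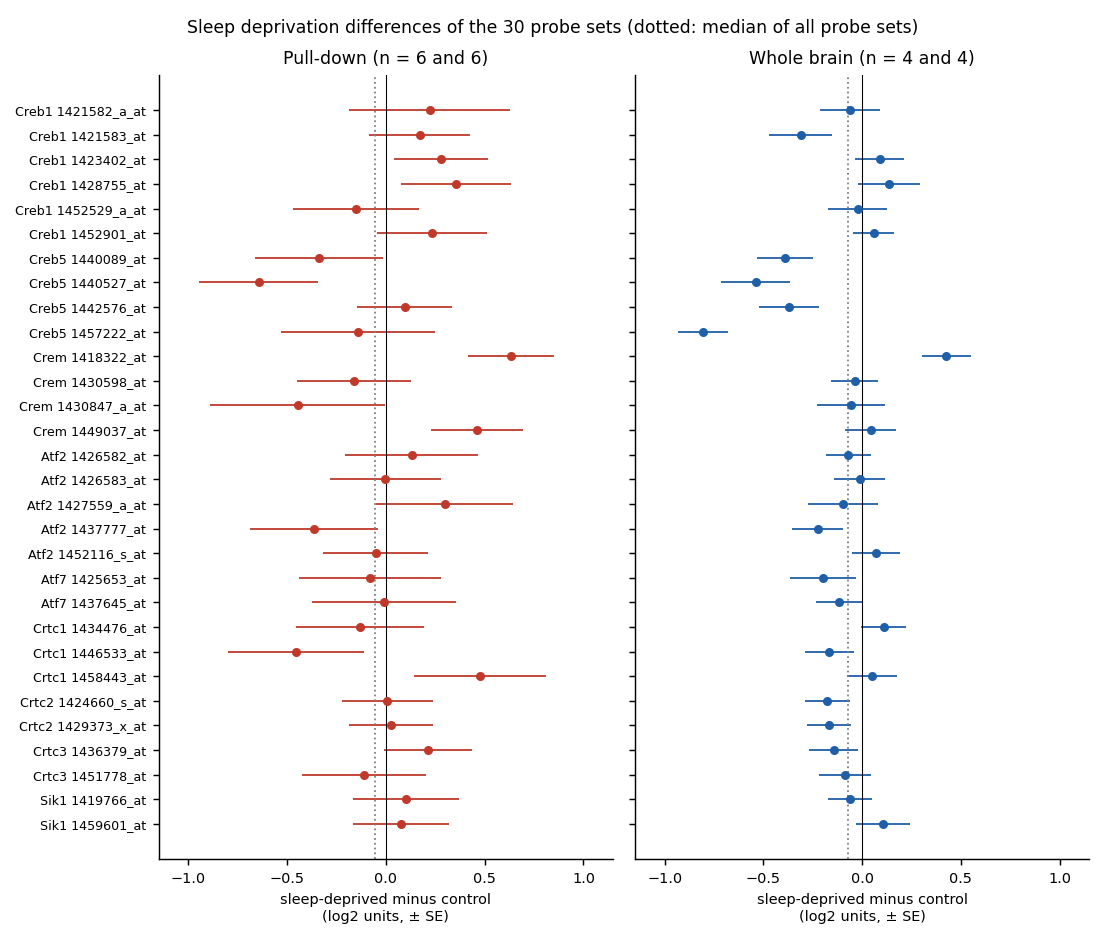
Difference of sleep-deprived minus control arrays (log2, with its SE) for each member probe set in pull-down and in whole brain, with a dotted line at the median of all probe sets. Creb5 1457222_at has the lowest whole-brain value, -0.81, and Crem 1418322_at is above 0 in both extracts.

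Genes that CREB is known to switch on read higher after sleep deprivation as a group, and few passed the test. The list was chosen with earlier results of these data known, so the group values are a description only. Of 29 target genes measured, 27 were above 0 in pull-down with a median of 0.47, against -0.03 over all genes. Of them 0 passed the adjusted p, and 10 had an unadjusted p under 0.05 in limma, beside 0.955% of all probe sets. With array weights, which count noisier arrays less, 26 were above 0 and the median was 0.22, against -0.08 over all genes. The largest were Arc, a synaptic protein, at 1.24 ± 0.42, Fos, a subunit of AP-1, at 1.19 ± 0.38, the clock gene Per2 at 0.92 ± 0.40 and the activin subunit Inhba at 0.92 ± 0.42. In whole brain 22 of 29 were above 0 with a median of 0.30, against -0.06 over all genes. There Arc rose by 1.23 ± 0.15 (limma, adjusted p = 0.014) and Fos by 1.06 ± 0.12 (adjusted p = 0.0115). No other target passed, nor did the nuclear receptor Nr4a3 at 0.85 ± 0.15 or the phosphatase Dusp1 at 0.77 ± 0.12. Of all probe sets, 0.0355% passed as higher in whole brain. The count of targets higher there was 2 after quantile normalization, 4 with array weights and 7 with arrays centred on their median.

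The levels of Fos in pull-down had a median of 9.20 (8.03 to 9.44) after sleep deprivation, against 7.37 (7.07 to 9.45) in controls. In whole brain they ran between 6.81 and 6.94 after sleep deprivation, against 5.64 to 6.11 in controls. Fos thus overlapped in pull-down and not in whole brain.

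**Figure D4:**
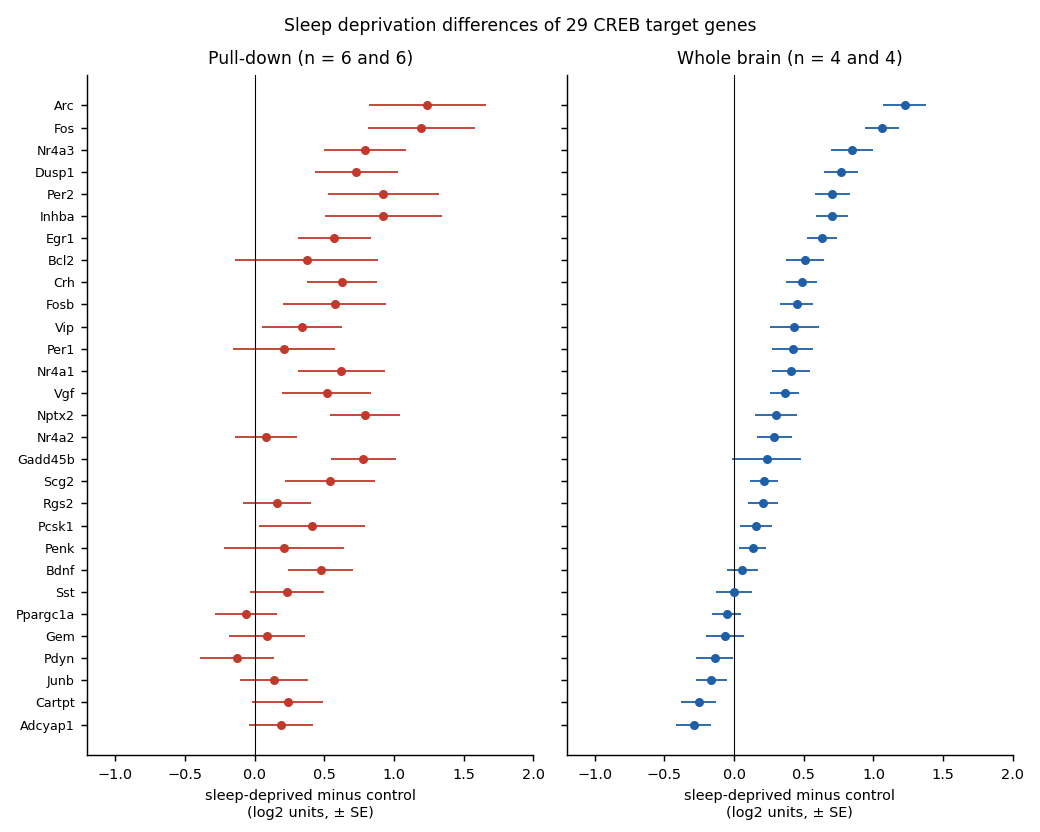
Difference of sleep-deprived minus control arrays (log2, with its SE) for the 29 CREB target genes measured, in pull-down and in whole brain. Of them 27 lie above 0 in pull-down and 22 in whole brain, with Arc and Fos highest in both.

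The machinery around CREB showed 0 calls in either extract (limma, adjusted p under 0.05). Of all probe sets 0% were called in pull-down and 0.0466% in whole brain, so 0 calls do not set these lists apart. Of 18 kinases and phosphatases upstream of CREB, 0 had an unadjusted p under 0.05 in pull-down or in whole brain. Their largest values were Rps6ka3 at 0.38 ± 0.29, Camk2b at 0.34, Camk2a at 0.29 and Prkar2a at 0.29 in pull-down, and Camk4 at 0.21, Ppp3r1 at -0.20, Rps6ka3 at 0.16 and Camk2g at -0.15 in whole brain. Of 15 genes of cyclic AMP synthesis and breakdown, 0 in pull-down and 1 in whole brain had an unadjusted p under 0.05. Of all probe sets 0.955% had such a p in pull-down, and that share is not given here for whole brain. The largest were Pde7b at 0.34 ± 0.28, Adcy3 at 0.29, Pde1b at -0.28 and Adcy1 at 0.26 in pull-down, and Adcy3 at 0.34 ± 0.15, Adcy9 at 0.21, Adcy8 at -0.20 and Adcy6 at 0.17 in whole brain.

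Among 8 coactivators and salt-inducible kinases, 1 in pull-down and 0 in whole brain had an unadjusted p under 0.05. Sik2, a relative of Sik1, led in pull-down at 0.78 ± 0.30, before the acetyltransferase Crebbp at 0.31, Sik3 at 0.26 and Crebl2 at 0.20. In whole brain the largest were the SIK-activating kinase Stk11 at 0.17, the acetyltransferase Ep300 at 0.13, Sik3 at 0.12 and Crebl2 at 0.10. Of 12 related bZIP factors, 0 in pull-down and 2 in whole brain had an unadjusted p under 0.05. Without the whole-brain share of all probe sets at that threshold, nothing is read from the whole-brain counts. The largest were Jdp2 at 0.59 ± 0.39, Creb3l2 at -0.46, Nfil3 at 0.43 and Creb3l4 at -0.39 in pull-down, and Nfil3 at 0.41 ± 0.12, Atf6 at 0.32, Atf3 at -0.24 and Creb3l2 at -0.19 in whole brain.

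Between extracts, most member probe sets read lower in pull-down than they did in whole brain, like most of the array. Of 30 member probe sets 24 were lower and 1 was higher, against 76.3% and 8.06% of all probe sets (limma, adjusted p under 0.05). The median difference over all probe sets was -0.78, and 11 of the 30 members lay above it. Directions here depend on the scaling of the arrays: 8 member probe sets were lower and 1 was higher under all 4 settings tried, and 14 changed sign. How many of all probe sets kept their call under all 4 settings was not counted, so these counts are not read as particular to the members. In single settings 76.3% of all probe sets were lower as deposited, 26.2% after quantile normalization and 18.3% with centred arrays. Over all probe sets 3630 were higher and 34378 lower as deposited, with a median difference of -0.78. After quantile normalization 14526 were higher and 11809 lower, with a median of 0.09. With each array centred on its median 23403 were higher and 8245 lower, with a median of 0.37.

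Those lower under all 4 settings came from 5 genes. Crtc1 1458443_at gave 5.34 ± 0.78 and 4.87 ± 0.43 in sleep-deprived and control pull-downs (SD, n = 6 each), against 7.55 ± 0.08 and 7.50 ± 0.23 in sleep-deprived and control whole brain (n = 4 each). No pull-down array reached the lowest whole-brain array, and the difference was -2.42 ± 0.21. Creb5 1457222_at differed by -2.24 ± 0.26, Atf2 1426582_at by -2.18 ± 0.22 and Creb1 1421582_a_at by -1.98 ± 0.26. The others were Atf2 1427559_a_at at -1.84, Creb1 1452529_a_at at -1.74, Crtc1 1434476_at at -1.73 and Atf7 1437645_at at -1.71. In 11 member probe sets every pull-down array lay below every whole-brain array, as in 27.5% of all probe sets.

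Probe sets of the same gene disagreed in this comparison. Atf2 1452116_s_at was higher in pull-down, at 9.65 against 8.99 in whole brain, a difference of 0.66 ± 0.16 that held under all 4 settings, while Atf2 1426582_at was lower. Creb1 spanned -1.98 ± 0.26 at 1421582_a_at to 0.05 ± 0.18 at 1428755_at, and its lead probe set 1452901_at differed by -0.07 ± 0.18. Creb5 spanned -2.24 at 1457222_at to 0.27 ± 0.21 at its lead probe set. An _a_at probe set can read several transcripts of 1 gene, and an _s_at probe set can read several genes.

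The other calls against whole brain changed sign or lost the call under at least 1 of the 4 settings. As deposited, Crem 1449037_at differed by -0.62 ± 0.14 and Sik1 1419766_at by -0.64 ± 0.16, and after quantile normalization by 0.47 and 0.52. The remaining lower probe sets, among them those of Crtc2, Crtc3 and the second of Atf7, ran between -1.29 and -0.41 as deposited. Crem 1418322_at, at 0.27 ± 0.14, and 1430598_at did not pass.

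**Figure D5:**
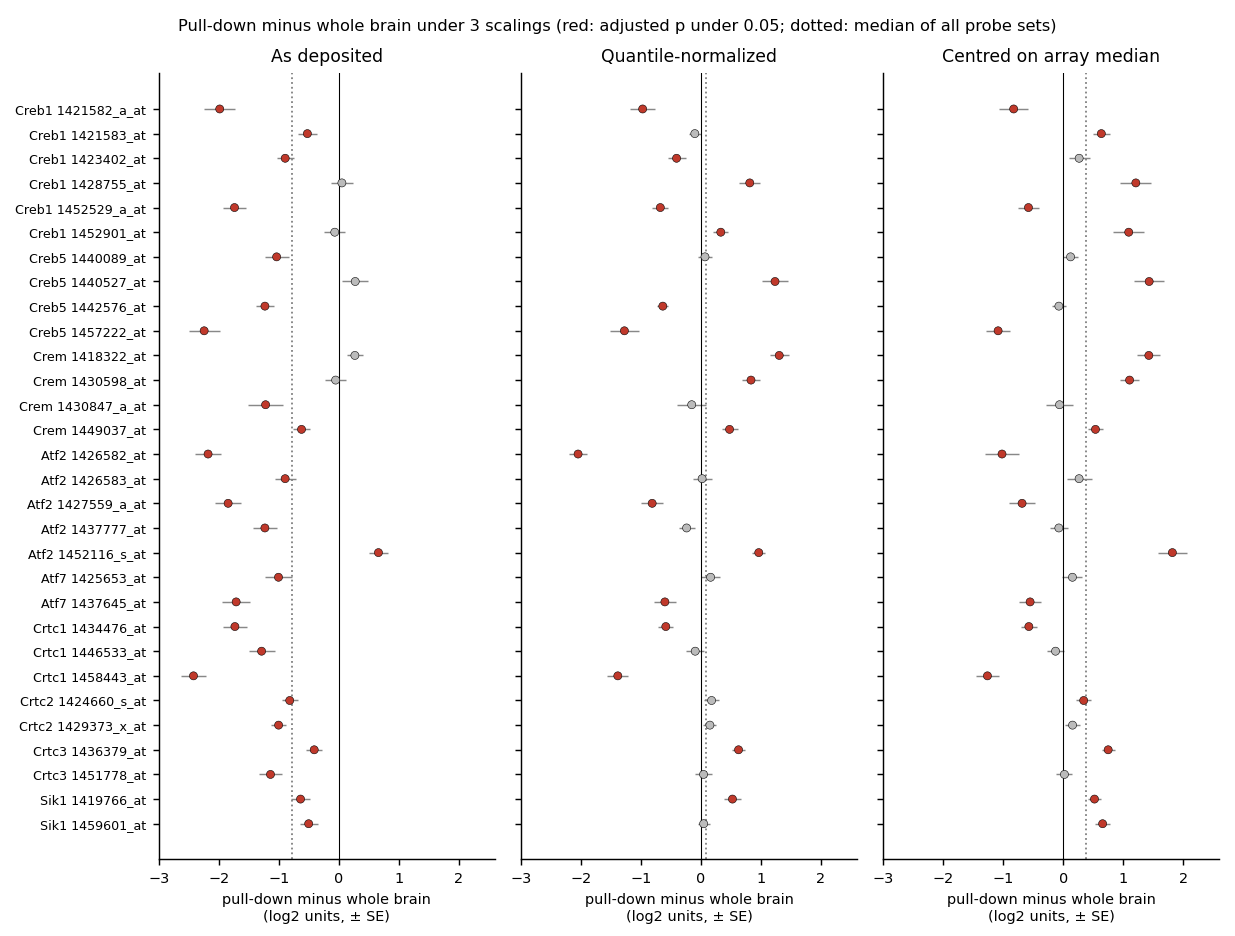
Difference of pull-down minus whole brain (log2, with its SE) for each member probe set, as deposited, after quantile normalization and with arrays centred on their median; red points passed an adjusted p of 0.05, grey ones did not, and the dotted line is the median of all probe sets. As deposited 24 were called lower and Atf2 1452116_s_at higher, and 14 of the 30 change sign over the settings.

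Against supernatant 22 member probe sets were lower in pull-down and 3 were higher, beside 67.4% and 11.2% of all probe sets (limma, adjusted p under 0.05). In 12 of them every pull-down array lay below every supernatant, as in 32.1% of all probe sets. Under all 4 settings 6 were lower and 3 higher, and 12 changed sign, and the share of all probe sets that did so was not counted. Over all probe sets 5022 were higher and 30365 lower as deposited. After quantile normalization these were 12232 and 12430, and with centred arrays 19867 and 8448. The lead probe set of Creb5 had means of 7.24 in pull-down and 6.14 in supernatant, a difference of 1.10 ± 0.27 (adjusted p = 0.000693). All 12 pull-down arrays were above the supernatant mean, but the ranges overlapped. The supernatants read 5.45 (number 14) and 5.76 (15), both labelled sleep-deprived, 6.62 (13, contradictory) and 6.73 (16, control). Atf2 1452116_s_at differed by 0.95 ± 0.21 and Creb1 1428755_at by 0.54 ± 0.23 (adjusted p = 0.033). The Creb1 call was lost without control pull-down 9 or without any of supernatants 13, 14 and 15. The lowest was Crtc1 1458443_at at -3.13 ± 0.27, followed by Atf2 1427559_a_at at -2.70, Creb5 1457222_at at -2.67, Atf7 1437645_at at -2.61, Creb1 1421582_a_at at -2.46 and Creb1 1452529_a_at at -2.26.

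Whole brain and supernatant gave 0 calls among the 30 member probe sets, where 10.9% of all probe sets passed the adjusted p in limma. Members with an unadjusted p under 0.05 numbered 5, and the share of all probe sets at that threshold was not counted. The SE of this comparison also draws on the spread of the pull-down arrays, which are in the same fit. The median SE of the members was 0.25 here, against 0.13 for sleep deprivation on the whole-brain arrays alone. The count of calls moved with the settings. After quantile normalization 5 members passed, beside 21.1% of all probe sets. With centred arrays 1 passed, beside 10.6%, and with array weights 8 passed, beside 30.7%. The lead probe set of Creb5 was 6.97 in whole brain and 6.14 in supernatant, and all 8 whole-brain arrays lay above the supernatant mean, a difference of 0.83 ± 0.29 (adjusted p = 0.0638). For this probe set the order of group means was pull-down control (7.56), whole-brain control (7.24), sleep-deprived pull-down (6.92), sleep-deprived whole brain (6.70) and supernatant (6.14), and each gap between neighbours was smaller than the larger of their SDs. Atf7 1437645_at was 6.70 in whole brain and 7.60 in supernatant (limma, adjusted p = 0.0659). Its groups did not overlap, and the share of all probe sets without overlap is not given here.

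The related lists of the pathway split in pull-down against whole brain, in counts that move with the scaling. The background was 8.06% higher and 76.3% lower of all probe sets as deposited, 32.3% and 26.2% after quantile normalization, and 52% and 18.3% with centred arrays. Of 29 target genes 12 were higher and 11 lower as deposited, 21 and 6 after quantile normalization, and 21 and 4 with centred arrays. As deposited they were led by Per1 at -2.48 ± 0.24, Nr4a2 at 2.35 ± 0.16, Bcl2 at -2.31 ± 0.33 and Crh at 2.27 ± 0.24.

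Of 18 kinases and phosphatases 10 were higher and 6 lower as deposited, 8 and 4 after quantile normalization, and 12 and 1 with centred arrays. As deposited Camk2b was at -3.40 ± 0.34, Camk1 at -1.50, Prkaca at -1.46 and the calcineurin subunit Ppp3ca at 1.36. Of 15 genes of cyclic AMP metabolism 3 were higher and 6 lower as deposited, 8 and 4 after quantile normalization, and 9 and 4 with centred arrays. As deposited Pde1a and Pde10a were at -2.04 each, Adcy1 at -1.78 and Adcy6 at -1.74.

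Of 8 coactivators and salt-inducible kinases 2 were higher and 5 lower as deposited, 3 and 2 after quantile normalization, and 4 and 1 with centred arrays. As deposited Stk11 was at -2.39, Crebbp at -1.56, Sik2 at -1.17 and Taf4 at -1.11. Of 12 related bZIP factors 0 were higher and 11 lower as deposited, but 5 and 3 after quantile normalization, and 8 and 3 with centred arrays. As deposited Creb3l2 was at -2.16, Atf6 at -2.04, Atf5 at -1.98 and Creb3 at -1.25.

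Across the 8 whole-brain arrays the genes most alike in pattern were sought among 9088 genes by Pearson correlation, as a description over arrays that share their groups. For Creb5 they were Spns3 (r = 0.977), Plcb2 (0.942), Cdca4 (0.94), Lhfpl2 (0.94) and Siglech (0.936). For Crem, at its lead probe set, they were Pip4p2 (0.953), Sh3bp5l (0.952), Pgd (0.938), Meis2 (0.93) and Nadk (0.927). For Sik1 they were Deaf1 (0.965), Ubxn6 (0.961), Prmt2 (0.951), the AP-1 subunit Jun (0.949) and Dusp22 (0.946).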

How the data were processed

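RNA of 24 mouse brain samples was measured on short-oligonucleotide arrays. The authors deposited log2 intensities per probe set, made with RMA in affy per the submitters' processing notes, with no version given. RMA quantile-normalizes arrays, yet the pull-down medians differ, so array-wide differences enter each comparison with pull-down. Of 45101 probe sets 64 controls were left out. Genes come from an annotation of the platform, in which 34945 probe sets had exactly 1 symbol. A gene's lead probe set has the highest mean over all arrays among those ending in _at or _a_at. Where a gene had neither kind, any of its probe sets could lead, as for Crtc2, whose lead is an _x_at probe set.

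Models were fitted with limma 3.58.1 in R 4.3.3 (lmFit and eBayes, two-sided), with Benjamini-Hochberg adjustment over 45037 probe sets and a threshold of 0.05, and were tested on simulated data. Sleep deprivation was compared on the 12 arrays of the pull-down and on the 8 of whole brain, extracts in 1 fit of 24 arrays. Each SE between extracts, also that of whole brain minus supernatant, thus draws on the spread of all groups, pull-down included. Named are member probe sets past the threshold, the 4 genes of each list with the largest difference, and the 5 most alike genes. The members and lists were chosen with earlier results of these data known. Alternatives were quantile normalization, centring each array on its median, array weights, a filter on low values, other sets of arrays and leaving out each array. No array pair was identical (highest r = 0.991). Nothing says that arrays come from separate mice, so p-values measure the spread between these samples. The number of arrays limits the precision.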

Additional observations from a re-analysis of the deposited data

Results flagged for a closer look

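In 150 groups of member probe sets, 6 arrays lay far from the others of their group, which is 4%, and chance alone marks about 1 in 20 groups. Control pull-down 11 was the lowest of its group at Creb1 1428755_at (6.407, against 7.547 to 8.055 on the others), at Creb1 1452901_at (8.026, against 8.797 to 9.249) and at Atf2 1452116_s_at (8.641, against 9.798 to 9.969). Control pull-down 9 was the highest at Creb1 1423402_at, at 8.527 with the next at 8.126. Sleep-deprived pull-down 10 was the highest at Crtc2 1429373_x_at, at 6.1 with the next at 5.714. Sleep-deprived whole brain 20 was the highest at Crtc3 1436379_at, at 5.209 with the next at 5.005. No other library stood apart in these groups by this measure.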

How the results depend on the processing

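The whole-brain fall of Creb5 1457222_at lost its call after quantile normalization and in 1 fit of all 24 arrays (0 member probe sets each), and leaving out single arrays gave 0 to 0, while pull-down and the interaction gave 0 under every alternative tried. Against whole brain, higher and lower members numbered 9 and 10 after quantile normalization, 12 and 8 after centring, and 2 higher with array weights; leaving out single arrays gave 25 to 26 calls, 1 to 2 of them higher. Against supernatant they numbered 8 and 9, 11 and 6, and 5 higher; leaving out single arrays gave 24 to 26 calls, 2 to 4 higher. Whole brain against supernatant gave 5 calls (1 higher, 4 lower) after quantile normalization, 1 (lower) after centring, 3 (1 and 2) with the filter and 8 (3 and 5) with array weights; leaving out single arrays gave 0 to 4, with 0 to 1 higher and 0 to 3 lower. Without sleep-deprived pull-down 1 and control pull-down 11, doubted for their spread and median and left out together by a choice made after seeing the data, the pull-down count stayed 0.

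Over the 4 settings (as deposited, quantile normalization, centring, array weights), 8 of the 30 member probe sets changed sign for sleep deprivation in pull-down, 7 in whole brain, 4 in the interaction, 14 against whole brain, 12 against supernatant and 6 between whole brain and supernatant. Against whole brain, quantile normalization and centring gave Creb5 1440089_at 0.066 and 0.12, Crem 1449037_at 0.47 and 0.53, Atf2 1426583_at 0.017 and 0.26, Atf7 1425653_at 0.16 and 0.15, Crtc2 1424660_s_at 0.18 and 0.34, Crtc2 1429373_x_at 0.15 and 0.15, Crtc3 1436379_at 0.62 and 0.75, Crtc3 1451778_at 0.041 and 0.018, Sik1 1419766_at 0.52 and 0.52, Sik1 1459601_at 0.043 and 0.65, Creb1 1452901_at 0.33 and 1.09, and Crem 1430598_at 0.83 and 1.10, and centring gave Creb1 1421583_at 0.63 and Creb1 1423402_at 0.26. Against supernatant they gave Crem 1449037_at 0.51 and 0.61, Atf7 1425653_at 0.17 and 0.15, Crtc2 1424660_s_at 0.16 and 0.32, Crtc2 1429373_x_at 0.10 and 0.15, Crtc3 1436379_at 0.48 and 0.57, Sik1 1419766_at 0.29 and 0.35, Creb1 1421583_at 0.12 and 0.94, Creb1 1452901_at 0.20 and 1.16, and Atf2 1426583_at 0.60 and 0.85, and centring gave Creb1 1423402_at 0.40, Creb5 1442576_at 0.073 and Sik1 1459601_at 0.31. For sleep deprivation in whole brain, centring gave Sik1 1419766_at 0.021, Crem 1430598_at 0.046, Crem 1430847_a_at 0.028, Creb1 1421582_a_at 0.024, Creb1 1452529_a_at 0.061, Atf2 1426582_at 0.014 and Atf2 1426583_at 0.071, and quantile normalization gave Crem 1430598_at 0.10 and Crem 1430847_a_at 0.055. For sleep deprivation in pull-down, centring gave Atf2 1426583_at 0.12, Atf2 1452116_s_at 0.073, Atf7 1425653_at 0.043, Atf7 1437645_at 0.12 and Crtc3 1451778_at 0.014, and array weights gave Creb1 1421582_a_at -0.020, Crtc2 1424660_s_at -0.077 and Crtc2 1429373_x_at -0.0097. No sign change in sleep deprivation, the interaction or whole brain against supernatant passed the threshold under any of the 4 settings. Without both doubted pull-down arrays, Crem 1430598_at was 0.088 and Crem 1430847_a_at 0.025 in pull-down. Leaving out single arrays gave, for sleep deprivation in pull-down, Creb5 1442576_at -0.0057 to 0.24, Creb5 1457222_at -0.39 to 0.077, Sik1 1419766_at -0.019 to 0.29 and Sik1 1459601_at -0.041 to 0.19. In whole brain it gave Crem 1449037_at -0.023 to 0.11, Crem 1430598_at -0.10 to 0.026, Crem 1430847_a_at -0.19 to 0.12 and Sik1 1459601_at -0.0097 to 0.21. The cause of these changes was not tested beyond the settings themselves. No paired analysis was possible because the groups compared share fewer than 2 replicate numbers. Levels under the array median on all 24 arrays limit what can be seen for Crem 1430598_at, Sik1 1459601_at, Creb5 1442576_at, Creb1 1421583_at, Atf2 1437777_at and Crtc2 1424660_s_at. Creb5 1440089_at and Crem 1430847_a_at lay under it on 23 of the 24, Crtc3 1436379_at on 22 and Atf7 1425653_at on 20.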
